A study of Mus musculus with 10 samples.

Results

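Oligodendrocyte precursor cells are the dividing glia from which myelinating oligodendrocytes arise, and 7 genes that mark them or act in them were followed here, among 15900 genes listed for mouse hippocampus. The genes were picked by name for their known place in the lineage, at a time when earlier results of these data had been seen. They are the receptor gene *Pdgfra*, the proteoglycan gene *Cspg4* (also known as NG2), the transcription factor genes *Olig1*, *Olig2* and *Sox10*, the receptor gene *Gpr17* and the ligand gene *Bmp4*. All 7 were listed, and all 7 passed the filter on low values, which kept 15851 genes.

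Whole hippocampi came from 10 adult male ICR (CD-1) mice, divided over 5 groups of 2. Mice called pre-SE are labelled untreated. The methods describe saline for control mice in the place of pilocarpine (PILO), a muscarinic agonist that sets off status epilepticus (SE). Pre-SE mice are called both control and naive in the sources used here, so whether they received saline is not certain. SE 6 h and SE 2 days mice had generalized convulsive seizures after PILO and were sampled 6 h or 2 days later, while SE + LEV 6 h and SE + LEV 2 days mice also received the anti-epileptic drug levetiracetam (LEV) by mouth, once before the 6 h sampling and repeatedly before the 2 days sampling. PILO was preceded by methyl scopolamine, which limits its effects outside the brain, and all mice are described as given diazepam, which ends SE. The 4 groups with SE therefore have PILO, methyl scopolamine and diazepam in common. The groups show acute changes after chemically induced SE, not chronic epilepsy. No gene was altered in any group, each library is described for 1 mouse, and the p-values measure the spread between the mice of a group.

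The oligodendrocyte lineage runs from precursors through newly formed cells to mature, myelinating cells. Precursors carry the PDGF receptor alpha, through which PDGF-A drives their division, and the NG2 proteoglycan. OLIG2 specifies the lineage, and both OLIG2 and SOX10 stay on in mature cells. GPR17 marks a passing stage between precursors and myelinating cells. BMP4 is a secreted factor known to hold precursors back from maturing and to favour astrocytes. Precursors are found throughout the adult hippocampus and are known to divide after injury. *Pdgfra* is also expressed by fibroblasts and *Cspg4* by pericytes, the cells that wrap capillaries.

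Expression was measured by CAGE, which reads RNA at its capped 5′ end. A tag therefore points to a transcription start site, and a long gene gives no more tags per transcript than a short one. Values are CPM, the tags of a gene scaled so that every library has the same total. From the steps between low CPM values, the depth was estimated at 10500000 to 51700000 tags per library, with a median of 26600000 tags, and 3 tags were worth 0.058 to 0.285 CPM. The 2 shallowest libraries were SE + LEV 6 h replicate 2, with 10500000 tags, and SE 6 h replicate 2, with 14600000 tags. Of the neuron markers, 7 of 7 were listed and their summed level lay between 3170 and 6410 CPM in every library. It was 3860 and 3550 CPM in SE 2 days and 3170 and 3900 CPM in SE + LEV 2 days mice, below every library of the other groups. *Ttr*, the most abundant marker of the choroid plexus, a tissue next to the hippocampus, was above 100 CPM in 4 libraries, namely pre-SE replicate 2 (1667.87 CPM), SE 6 h replicate 2 (3935.71 CPM), SE + LEV 6 h replicate 1 (843.42 CPM) and SE + LEV 2 days replicate 1 (1475.00 CPM), and at 4.33 to 55.59 CPM in the others. These libraries stand apart from the other mouse of their own group. Values without them are given beside some of the results and in the part on how the results depend on the processing.

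A CAGE tag is read at a promoter, so the promoters of *Pdgfra* and *Olig2* are shown, as 1 membrane and 1 nuclear marker whose start sites lie in unlike sequence. They are given from 250 bases before to 50 bases after the RefSeq start, 5′ to 3′ on the strand of the gene (+ in both), as RefSeq records them on GRCm38.p6, at chr5:75152001-75152300 for *Pdgfra* and chr16:91225300-91225599 for *Olig2*. Capitals mark any match to 5 motifs searched on both strands, which are TATAAA (the TATA box), CCAAT (the CCAAT box), GGGCGG (the GC box) and 2 forms bound by SOX proteins, ACAATG and ACAAAG.
Pdgfra: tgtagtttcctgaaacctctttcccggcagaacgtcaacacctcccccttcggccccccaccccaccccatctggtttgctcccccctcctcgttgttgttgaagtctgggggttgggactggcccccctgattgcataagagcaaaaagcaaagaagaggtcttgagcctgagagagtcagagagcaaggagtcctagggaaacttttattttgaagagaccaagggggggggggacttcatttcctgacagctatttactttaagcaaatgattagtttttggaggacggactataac
Olig2: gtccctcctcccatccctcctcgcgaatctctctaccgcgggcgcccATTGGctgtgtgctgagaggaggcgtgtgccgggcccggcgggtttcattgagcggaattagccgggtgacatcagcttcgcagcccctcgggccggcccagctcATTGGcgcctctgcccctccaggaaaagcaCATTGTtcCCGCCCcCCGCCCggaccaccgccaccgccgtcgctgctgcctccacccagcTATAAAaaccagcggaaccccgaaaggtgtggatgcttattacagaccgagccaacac

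The *Olig2* window held TATAAA with its first base 8 bases before the start, CCAAT on the other strand at 203 and 98 bases, GGGCGG on the other strand at 60 and 53 bases, and ACAATG on the other strand at 68 bases. None of these matches overlapped another. The *Pdgfra* window held none of the 5 motifs, which says only that these letters are not in it. Among 32851 mouse promoters of the same length, TATAAA was found in 13.6%, CCAAT in 37.4%, GGGCGG in 35.7%, ACAATG in 12.6% and ACAAAG in 18.7%. The GC content was 65.0% for *Olig2*, with 25 CpG dinucleotides, and 51.0% for *Pdgfra*, with 5, beside medians of 52.7% and 7 over all promoters. RefSeq entries were matched for 4 of the 7 genes. The other matched windows were those of *Cspg4*, with GGGCGG on the other strand at 120 and 85 bases before the start, and *Bmp4*, with GGGCGG at 38 bases. *Olig1*, *Sox10* and *Gpr17* were not matched, and entries on chromosome 18, which holds *Gpr17*, were left out of the search.

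On mm9, the build of the deposited values, *Olig2* (ENSMUSG00000039830, + strand) spans chr16:91225795-91228922, and *Olig1* (ENSMUSG00000046160, + strand, 1 exon) follows it at chr16:91270014-91272184, with 41092 bases between them. *Pdgfra* (ENSMUSG00000029231) lies on the + strand at chr5:75548316-75594229 and *Cspg4* (ENSMUSG00000032911) on the + strand at chr9:56712911-56747677. *Sox10* (ENSMUSG00000033006) is on the − strand at chr15:78985343-78994920. None of these 5 genes overlaps another annotated gene. *Gpr17* (ENSMUSG00000052229, − strand, chr18:32102651-32109290) overlaps *Lims2* on the other strand, and *Bmp4* (ENSMUSG00000021835, − strand, chr14:47003195-47010344) overlaps *Gm15217* and *Gm15222* on the other strand. The sources used here do not say whether tags were assigned to genes by strand, so the values of *Gpr17* and *Bmp4* are uncertain to that extent.

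The order of the levels was much the same in all 10 mice. *Olig1* had the most tags of the 7 genes in every library, at 114.12 to 382.87 CPM, and *Bmp4* the fewest, at 0.50 to 2.14 CPM. *Olig2* and *Sox10* took the second and the third place in every library, at 29.05 to 70.24 and 34.72 to 67.15 CPM. *Pdgfra* followed in the fourth or the fifth place, at 15.52 to 27.04 CPM. *Cspg4* was in the fifth or the sixth place, at 5.80 to 15.97 CPM, and *Gpr17* moved between the fourth and the sixth, at 6.35 to 25.51 CPM. By the estimated depth, *Bmp4* rested on 16 to 109 tags per library, which gives a counting error of up to 25.1%, and the other 6 genes on 83 tags or more. Counting errors cover neither the animal nor the library.

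Whether SE and LEV shifted these genes was tested in 9 comparisons with limma on log2(CPM + 0.1), fitted on all 10 libraries, with p-values adjusted by the Benjamini-Hochberg method over the 15851 genes and a gene called at an adjusted p of at most 0.05. The logFC is the difference of group means on this scale, which understates the change of low genes. None of the 7 genes was called in any comparison. Of 63 values of logFC, 6 had an unadjusted p under 0.05 and 57 had a 95% confidence interval that included 0. The smallest p was 0.022 and the smallest adjusted p by limma 0.24. The standard error of a logFC between 2 groups ran from 0.25 for *Pdgfra* to 0.61 for *Bmp4*, which limits the changes that were detectable. In whole tissue, fewer cells of a type and less RNA per cell cannot be told apart. Exact permutation of 2 mice against 2 (two-sided) cannot give a p below 0.333, and the tests therefore rest on the spread that limma shares across genes and groups.

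The counts of the 7 genes were read against the shares of all genes. In SE 6 h against pre-SE mice, 2.96% of the genes tested were called, 17.7% had an unadjusted p under 0.05 and the groups of 49.9% did not overlap, against 0, 0 and 1 (*Pdgfra*) of the 7. In SE 2 days against pre-SE mice these shares were 5.66%, 19.8% and 52.0%, against 0, 1 (*Gpr17*) and 3 (*Pdgfra*, *Gpr17* and *Bmp4*) of the 7. Between SE 2 days and SE 6 h mice they were 4.25%, 20.1% and 51.1%, against 0, 0 and 3 (*Pdgfra*, *Olig2* and *Bmp4*). At these shares called, 0 of 7 is near the background. The members' median logFC was −0.22 at 6 h and −0.14 at 2 days against pre-SE, beside −0.13 and −0.03 over all genes. A rescaling by the median of gene ratios brought the value of all genes at 6 h from −0.13 to −0.005.

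With LEV, few genes of the genome were called. In SE + LEV 6 h against SE 6 h mice, 0.0126% of the genes were called by limma, 4.58% had an unadjusted p under 0.05 and 29.5% did not overlap, against 0, 0 and 2 of the 7 (*Pdgfra* and *Sox10*, in opposite directions). In SE + LEV 2 days against SE 2 days mice the shares were 0.0%, 2.7% and 27.4%, against 0, 1 (*Gpr17*) and 2 (*Gpr17* and *Olig2*) of the 7. All 7 estimates were above 0 in this comparison, with a median of 0.50 beside 0.04 over all genes, of which 55.4% were above 0. SE + LEV 2 days replicate 1 was the only mouse of this comparison above 100 CPM of *Ttr*. Without it, which left 1 mouse against 2, the estimates of *Pdgfra*, *Cspg4* and *Olig1* were below 0, at −0.12, −0.09 and −0.05. The genes were measured in the same libraries and are not independent of one another.

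Mice given LEV were also compared with pre-SE mice. At 6 h, 0.322% of the genes were called, 9.38% had an unadjusted p under 0.05 and 42.5% did not overlap, against 0, 1 (*Gpr17*) and 2 (*Sox10* and *Gpr17*, both lower) of the 7. At 2 days the shares were 2.85%, 10.8% and 40.1%, against 0, 0 and 2 (*Pdgfra* and *Sox10*, both higher). Between SE + LEV 2 days and SE + LEV 6 h mice they were 2.14%, 11.9% and 41.2%, against 0, 2 (*Sox10* and *Gpr17*) and 3 (*Sox10* and *Gpr17* higher, *Olig2* lower). Of the LEV differences between the 2 times, 0.0% were called by limma and 2.38% had an unadjusted p under 0.05, against 0 and 1 (*Gpr17*) of the 7. These comparisons share groups of mice.

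**Figure D1:**
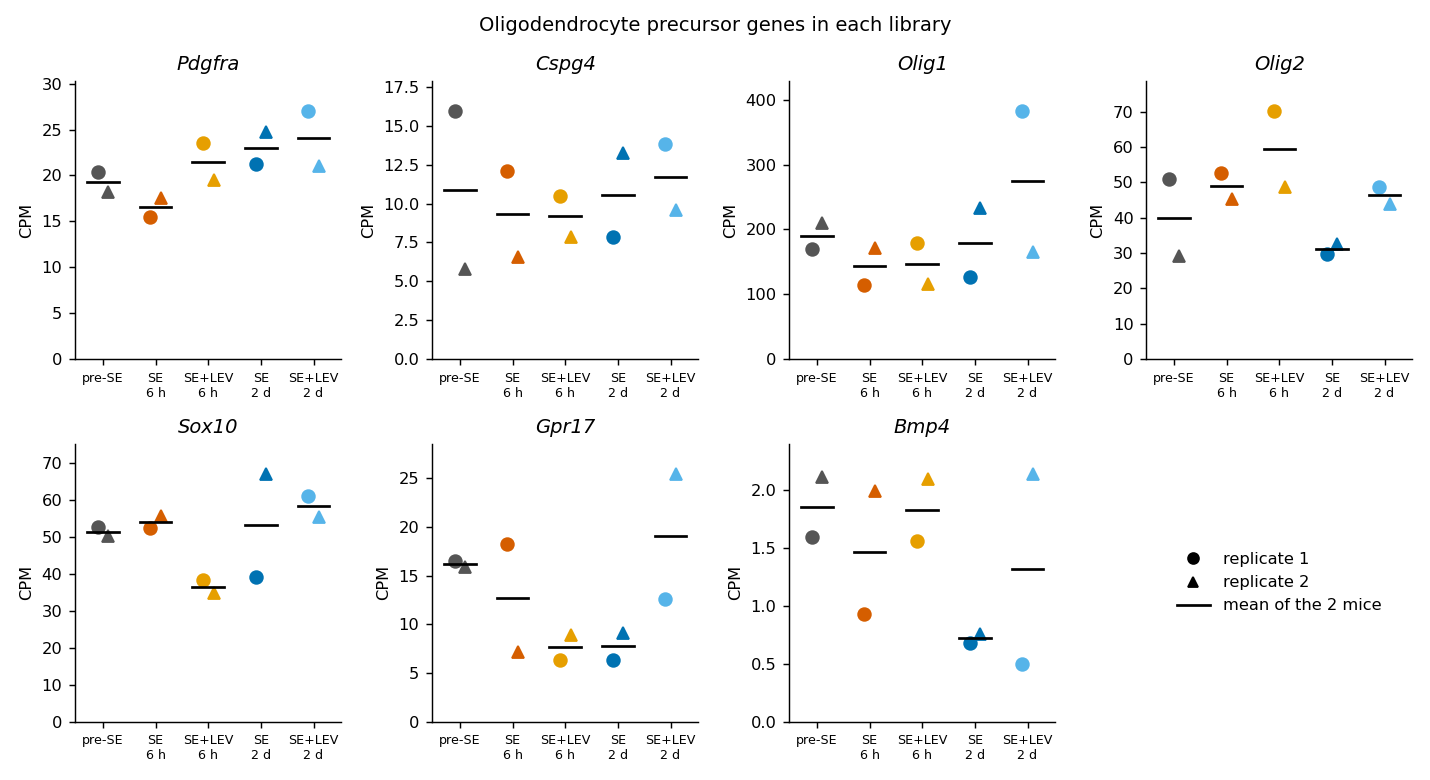
CPM (y axis, linear and starting at 0, with its own range in each panel) of the 7 oligodendrocyte precursor genes in each of the 10 libraries, by group (x axis); circles are replicate 1, triangles replicate 2 and bars the mean of the 2 mice. *Bmp4* lies at 0.68 and 0.76 CPM in SE 2 days mice, below both pre-SE mice, and *Gpr17* at 6.36 and 9.17 CPM, whereas the 2 mice of a group are often as far apart as the groups are.

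Among the membrane proteins, *Pdgfra* had the most even level. In CPM, for replicates 1 and 2, it measured 20.35 and 18.24 (pre-SE), 15.52 and 17.54 (SE 6 h), 23.56 and 19.45 (SE + LEV 6 h), 21.28 and 24.69 (SE 2 days), and 27.04 and 21.03 (SE + LEV 2 days). The SE 6 h mice were the 2 lowest of the 10, the SE 2 days pair exceeded the pre-SE pair, and the 2 mice of a group differed by a ratio of at most 1.29. Against pre-SE, the logFC was −0.22 at 6 h (standard error 0.25, 95% interval −0.79 to 0.34, adjusted p by limma 0.69) and 0.25 at 2 days (standard error 0.25, interval −0.31 to 0.81, adjusted p 0.66), and SE 2 days mice exceeded SE 6 h mice by 0.47 (interval −0.09 to 1.04, adjusted p 0.33). With LEV it was 0.37 higher at 6 h (interval −0.19 to 0.94, unadjusted p by limma 0.17), with both SE + LEV 6 h mice above both SE 6 h mice, and 0.06 higher at 2 days (interval −0.51 to 0.62), with overlapping groups. In order of group means the level ran from 24.0 CPM ± 4.25 (SD, n = 2) in SE + LEV 2 days mice through 23.0 in SE 2 days, 21.5 in SE + LEV 6 h and 19.3 in pre-SE to 16.5 CPM ± 1.43 in SE 6 h mice, and of the neighbours in that order only pre-SE and SE 6 h mice did not overlap.

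*Cspg4*, the NG2 proteoglycan that precursors share with pericytes, differed more between mice of a group than between groups. The values were 15.97 and 5.80 CPM (pre-SE), 12.09 and 6.58 (SE 6 h), 10.50 and 7.87 (SE + LEV 6 h), 7.84 and 13.28 (SE 2 days), and 13.81 and 9.61 (SE + LEV 2 days). The highest and the lowest of the 10 values are thus both from pre-SE mice, a ratio of 2.75, while the highest group mean was 1.27 times the lowest. All 8 comparisons between 2 groups overlapped, with means from 11.7 CPM ± 2.97 (SD, n = 2) in SE + LEV 2 days to 9.19 CPM ± 1.86 in SE + LEV 6 h mice. The logFC against pre-SE was −0.11 at 6 h (standard error 0.51, interval −1.23 to 1.01) and 0.08 at 2 days (interval −1.04 to 1.21), and with LEV 0.03 at 6 h (interval −1.10 to 1.15) and 0.17 at 2 days (interval −0.95 to 1.30). Without the 4 libraries with more than 100 CPM of *Ttr*, the value for SE 2 days against pre-SE was −0.64, and those with LEV were −0.61 at 6 h and −0.09 at 2 days. Each comparison at 2 days thereby lost 1 mouse, pre-SE replicate 2 or SE + LEV 2 days replicate 1.

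*Gpr17*, a G protein-coupled receptor whose level is known to fall as cells go on to form myelin, had the smallest p-values of the set. The 10 mice had 16.52 and 15.90 CPM (pre-SE), 18.25 and 7.13 (SE 6 h), 6.35 and 8.92 (SE + LEV 6 h), 6.36 and 9.17 (SE 2 days), and 12.60 and 25.51 (SE + LEV 2 days). Both SE 2 days mice and both SE + LEV 6 h mice were below both pre-SE mice, both SE + LEV 2 days mice were above both SE 2 days mice, and the 2 SE 6 h mice overlapped with each group they were compared with. SE 2 days mice had 0.475 times the pre-SE level, a logFC of −1.08 (standard error 0.48, 95% interval −2.13 to −0.02), with an adjusted p by limma of 0.24 and an unadjusted one of 0.047. SE + LEV 2 days mice had 2.33 times the level of SE 2 days mice, a logFC of 1.22 (interval 0.16 to 2.28), with an adjusted p by limma of 1 and an unadjusted one of 0.028. These comparisons share the 2 SE 2 days mice. Group means ran from 19.1 CPM ± 9.13 (SD, n = 2) in SE + LEV 2 days through 16.2 in pre-SE, 12.7 in SE 6 h and 7.77 in SE 2 days to 7.63 CPM ± 1.82 in SE + LEV 6 h mice. SE + LEV 6 h mice lay 1.10 below pre-SE mice on the log2 scale (logFC −1.10, interval −2.16 to −0.04, adjusted p by limma 0.51) and SE + LEV 2 days mice 1.24 above SE + LEV 6 h mice (interval 0.18 to 2.30, adjusted p 0.32). The LEV difference at 2 days exceeded that at 6 h by 1.82 (standard error 0.67, interval 0.32 to 3.31), with an adjusted p by limma of 1 and an unadjusted one of 0.022. Without the 4 libraries with more than 100 CPM of *Ttr*, which leaves 1 mouse each in pre-SE, SE 6 h, SE + LEV 6 h and SE + LEV 2 days, the logFC of SE 2 days against pre-SE was −1.10 and that of SE + LEV 2 days against SE 2 days 1.73. Without SE + LEV 2 days replicate 2, the second of these was 0.71.

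Of the transcription factors, *Olig1* was the most abundant and varied most in CPM. It measured 169.95 and 210.28 CPM (pre-SE), 114.12 and 171.57 (SE 6 h), 178.92 and 115.27 (SE + LEV 6 h), 125.88 and 233.13 (SE 2 days), and 382.87 and 165.07 (SE + LEV 2 days). The means ran from 274 CPM ± 154 (SD, n = 2) in SE + LEV 2 days to 143 CPM ± 40.6 in SE 6 h mice. All compared groups overlapped, and the value of 382.87 CPM stands well above the other 9. The logFC against pre-SE was −0.43 at 6 h (standard error 0.43, interval −1.39 to 0.53) and −0.14 at 2 days (interval −1.10 to 0.82). The second was 0.01 without pre-SE replicate 2, the only mouse of that comparison above 100 CPM of *Ttr*. In SE + LEV 2 days against SE 2 days mice the logFC was 0.55 (interval −0.41 to 1.51, adjusted p by limma 1). It was −0.05 without SE + LEV 2 days replicate 1, the mouse with 382.87 CPM and 1475.00 CPM of *Ttr*. The part of choroid plexus RNA in that value was not tested.

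*Olig2*, which is needed for the lineage to form, had the smallest p of the 7 between the 2 times in mice without LEV. Levels were 50.94 and 29.05 CPM (pre-SE), 52.57 and 45.36 (SE 6 h), 70.24 and 48.76 (SE + LEV 6 h), 29.72 and 32.43 (SE 2 days), and 48.69 and 43.91 (SE + LEV 2 days). Both SE 2 days mice were below both SE 6 h mice and both SE + LEV 2 days mice, but overlapped with the pre-SE mice. The means ran from 59.5 CPM ± 15.2 (SD, n = 2) in SE + LEV 6 h to 31.1 CPM ± 1.92 in SE 2 days mice. SE 2 days mice had 0.637 times the SE 6 h level (logFC −0.65, standard error 0.30, interval −1.31 to 0.009, with an adjusted p by limma of 0.26 and an unadjusted one of 0.053). SE + LEV 2 days mice had 1.49 times the SE 2 days level (logFC 0.57, interval −0.09 to 1.23, with an adjusted p by limma of 1 and an unadjusted one of 0.082). Against pre-SE, the logFC was 0.34 at 6 h (interval −0.32 to 1.0) and −0.31 at 2 days (interval −0.97 to 0.35). Without pre-SE replicate 2, the only mouse of that comparison above 100 CPM of *Ttr*, the value at 2 days was −0.71.

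*Sox10*, which switches on myelin genes together with OLIG proteins, was lowest in SE + LEV 6 h mice. It stood at 52.59 and 50.24 CPM (pre-SE), 52.44 and 55.64 (SE 6 h), 38.28 and 34.72 (SE + LEV 6 h), 39.22 and 67.15 (SE 2 days), and 61.08 and 55.49 (SE + LEV 2 days). The SE + LEV 6 h mice were the 2 lowest of the 10, and the SE 2 days mice spread over most of the range of the others. The means ran from 58.3 CPM ± 3.95 (SD, n = 2) in SE + LEV 2 days to 36.5 CPM ± 2.52 in SE + LEV 6 h mice. In SE + LEV 6 h mice the level was 0.676 times that of SE 6 h mice (logFC −0.57, standard error 0.26, interval −1.15 to 0.02, with an adjusted p by limma of 1 and an unadjusted one of 0.057). SE + LEV 2 days mice lay 0.67 above SE + LEV 6 h mice (interval 0.09 to 1.26, with an adjusted p by limma of 0.33 and an unadjusted one of 0.028). After SE alone the logFC against pre-SE was 0.07 at 6 h (interval −0.51 to 0.66) and −0.002 at 2 days (interval −0.59 to 0.58).

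The ligand *Bmp4* was the lowest of the set and had the widest intervals. The mice had 1.59 and 2.11 CPM (pre-SE), 0.93 and 1.99 (SE 6 h), 1.56 and 2.09 (SE + LEV 6 h), 0.68 and 0.76 (SE 2 days), and 0.50 and 2.14 (SE + LEV 2 days). The 2 SE 2 days mice were below every mouse of the pre-SE and 6 h groups, and the SE + LEV 2 days mice held both the lowest and the highest value of all 10. The means ran from 1.85 CPM ± 0.368 (SD, n = 2) in pre-SE to 0.72 CPM ± 0.0566 in SE 2 days mice. SE 2 days mice had 0.424 times the pre-SE level (logFC −1.24, standard error 0.61, interval −2.58 to 0.11, with an adjusted p by limma of 0.29 and an unadjusted one of 0.068). Against SE 6 h mice the logFC was −0.84 (interval −2.19 to 0.50), and with LEV it was 0.38 at 6 h (interval −0.97 to 1.72) and 0.50 at 2 days (interval −0.84 to 1.85). Without the 4 libraries with more than 100 CPM of *Ttr*, the values with LEV were 1.09 at 6 h and 1.45 at 2 days, whereas they were −0.13 at 6 h without SE 6 h replicate 1 and −0.45 at 2 days without SE + LEV 2 days replicate 2.

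**Figure D2:**
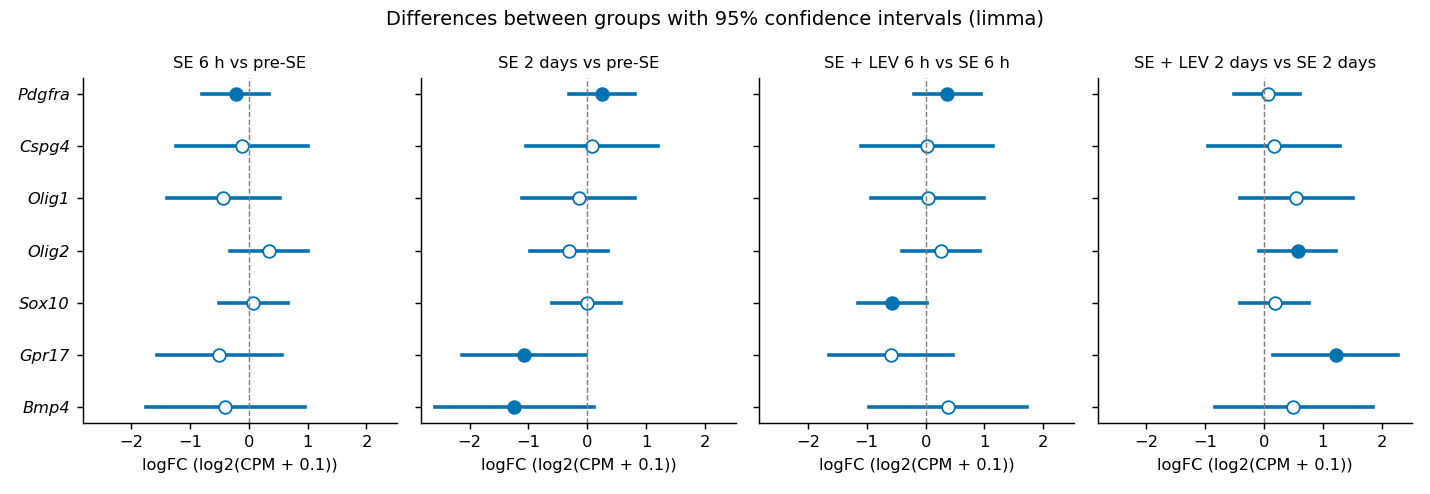
Differences between groups (x axis, logFC on the log2(CPM + 0.1) scale) of the 7 genes (y axis) in 4 comparisons; points are limma estimates and lines their 95% confidence intervals, filled points mark genes in which both mice of one group were above or below both mice of the other. The intervals of *Gpr17* leave out 0 in SE 2 days against pre-SE and in SE + LEV 2 days against SE 2 days, and all others shown include it.

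The receptor of the set was next read together with its ligands. PDGF-A, the main ligand of PDGF receptor alpha on precursors, is encoded by *Pdgfa*, which was at 64.3 CPM in pre-SE, 62.7 in SE 6 h and 53.2 in SE 2 days mice, with a logFC of −0.06 and −0.29 against pre-SE. Of 5 genes for PDGF ligands and the beta receptor, 1 was called at 6 h. It was *Pdgfc*, another ligand of the alpha receptor, which rose from 7.48 CPM in pre-SE to 20.4 CPM in SE 6 h mice (logFC 1.42, standard error 0.27, adjusted p by limma 0.021) and was at 8.84 CPM in SE 2 days mice, lower than at 6 h (logFC −1.19, adjusted p 0.039). By limma, 0 of the 5 were called in SE 2 days against pre-SE or with LEV at either time, and 0 had an unadjusted p under 0.05 there. Over all 14 lists of context genes 7 genes were called in SE 6 h against pre-SE, among them *Pdgfc*, *Smad7* and *Hes5*, and 0 of them without the 4 libraries with more than 100 CPM of *Ttr*, which leaves 1 mouse in each of both groups. The levels of the remaining mice, SE 6 h against pre-SE, were 17.8 and 7.21 CPM for *Pdgfc*, 103.73 and 24.66 CPM for *Smad7*, and 5.0 and 19.97 CPM for *Hes5*, in the same directions as the means of both mice.

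Of 21 other genes of the BMP pathway that were tested, 1 was called at each time after SE. *Smad7*, an inhibitor of BMP and TGF-beta receptors, rose at 6 h from 30.1 to 112 CPM (logFC 1.91, standard error 0.34, adjusted p by limma 0.016). *Id1*, a target gene of BMP signalling that opposes basic helix-loop-helix factors such as the OLIG proteins, rose at 2 days from 7.07 to 25.7 CPM (logFC 1.85, standard error 0.41, adjusted p by limma 0.028). At 2 days, 8 of the 21 were higher and 1 was lower at an unadjusted p under 0.05, beside 19.8% of all genes in either direction. The median logFC was 0.51, beside −0.03 over all genes and −1.24 for *Bmp4* itself. The most abundant of the list, by the mean over the 10 libraries, were the related *Id2*, at 107 CPM in pre-SE and 233 CPM in SE 2 days mice (logFC 1.10, adjusted p by limma 0.13), and *Id3*, at 89.6 and 189 CPM (logFC 1.08, adjusted p 0.089). *Id4*, of the same family and named after its values were seen, went the other way, at 102 and 36.9 CPM (logFC −1.44, adjusted p by limma 0.062), and its logFC with LEV at 2 days was 1.35 (adjusted p 1). With LEV, 0 of the 21 were called by limma at either time. At an unadjusted p under 0.05, 1 was higher and 2 were lower at 6 h, and 2 were higher and 3 lower at 2 days. The shares of all genes were 4.58% and 2.7%.

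Of 11 other transcription factors of the lineage, *Hes5* was called at both times after SE. *Hes5*, a Notch target that keeps precursors and stem cells from maturing, fell from 28.1 CPM in pre-SE to 4.96 CPM in SE 6 h mice (logFC −2.41, standard error 0.52, adjusted p by limma 0.038) and was at 3.29 CPM in SE 2 days mice (logFC −3.09, adjusted p 0.0076). The most abundant of the list were *Sox8*, a close relative of *Sox10*, at 90.8 CPM in pre-SE and 46.0 CPM in SE 2 days mice (logFC −0.96, adjusted p by limma 0.14), and *Sox9*, at 29.7 and 55.7 CPM (logFC 0.97, adjusted p 0.12). With LEV, 0 of the 11 were called by limma, and 1 was higher at an unadjusted p under 0.05 at each time. In which cells these genes changed, of the lineage or of other types, cannot be read from whole tissue.

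Later stages of the lineage were set beside the precursor genes at 2 days after SE. Of 12 other precursor genes, 0 were called by limma at 2 days, 2 were lower at an unadjusted p under 0.05, 6 estimates were above 0 and 6 below, and the median logFC was −0.02. All 8 genes of newly formed oligodendrocytes had estimates below 0 (median −0.49), 2 of them at an unadjusted p under 0.05, and 0 were called. Of 12 genes of mature oligodendrocytes, 10 had estimates below 0 (median −0.94), 6 were lower and 1 was higher at an unadjusted p under 0.05, and 1 was called. The gene called was *Aspa*, which encodes the enzyme that breaks down N-acetylaspartate, and it fell from 25.2 to 7.15 CPM (logFC −1.80, standard error 0.40, adjusted p by limma 0.026). The major myelin gene *Mbp* was at 2550 CPM in pre-SE mice and at 1080 CPM in SE 2 days mice (logFC −1.26, adjusted p by limma 0.093). *Trf*, named after its values were seen, went the other way, at 79.7 and 232 CPM (logFC 1.51, adjusted p by limma 0.052). The difference between the lists was not tested. Over all genes the median was −0.03, 5.66% were called and 19.8% had an unadjusted p under 0.05. At 6 h, 0 genes of these 3 lists were called by limma, and the medians were 0.03 for the other precursor genes, −0.05 for newly formed and −0.17 for mature cells. Of the 32 genes, 2 had an unadjusted p under 0.05, beside 17.7% of all genes. With LEV at 2 days, 0 genes of these lists were called by limma, and most estimates were above 0, as were those of the 7 genes. They were above 0 for 10 of the 12 other precursor genes (median 0.18), 7 of the 8 genes of newly formed cells (median 0.33) and 10 of the 12 genes of mature cells (median 0.55), with 1, 0 and 2 higher at an unadjusted p under 0.05. Over all genes, 55.4% of the estimates with LEV at 2 days were above 0, with a median of 0.04, and 2.7% had an unadjusted p under 0.05. The comparisons at 2 days with pre-SE and with LEV share the 2 SE 2 days mice, so low values in these mice enter both.

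**Figure D3:**
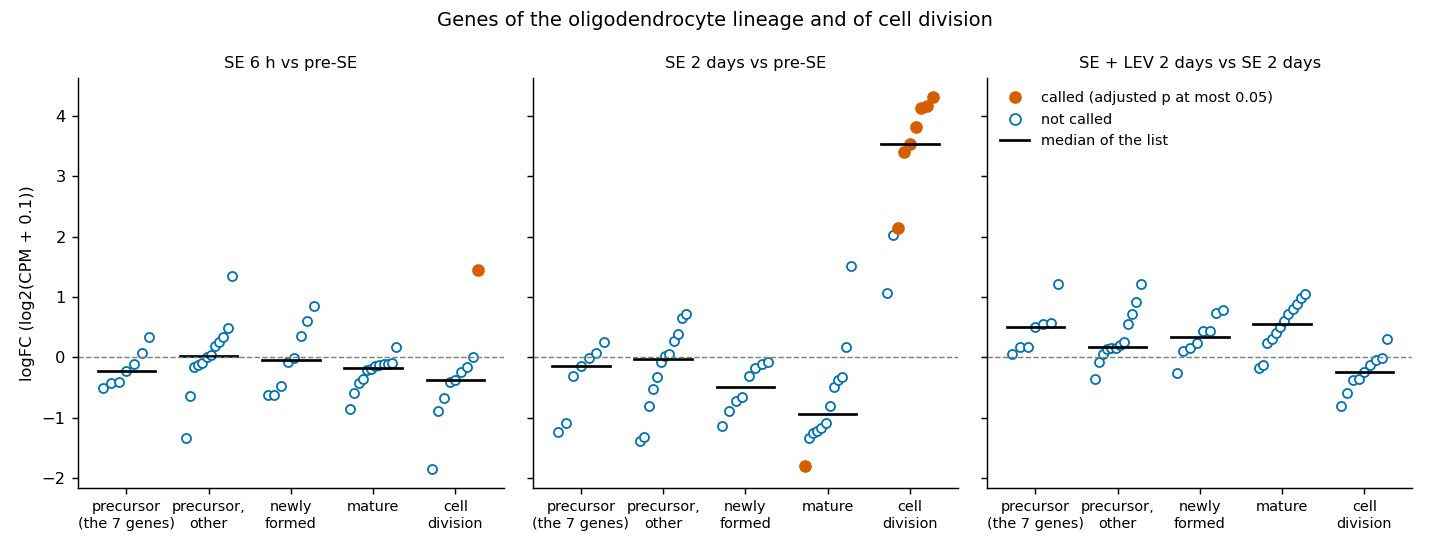
Difference (y axis, logFC on the log2(CPM + 0.1) scale) of each gene of 5 lists (x axis) in 3 comparisons; filled points are called, open points are not, and bars are list medians. In SE 2 days against pre-SE the median is −0.14 for the 7 precursor genes and −0.94 for mature oligodendrocyte genes, and 7 of 9 cell division genes are called higher.

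Genes of cell division rose in the same hippocampi at 2 days. Of 9 tested, 7 were called higher in SE 2 days against pre-SE mice and 9 were higher at an unadjusted p under 0.05, with a median logFC of 3.54. *Plk1*, a kinase of mitosis, rose from 0.200 to 6.20 CPM (logFC 4.31, adjusted p by limma 0.0014), *Cdk1* from 0.490 to 10.1 CPM (logFC 4.16) and *Ccna2*, a cyclin, from 0.580 to 12.2 CPM (logFC 4.13). *Pdgfra* and *Cspg4*, which mark the dividing stage of the lineage, had estimates of 0.25 and 0.08 in that comparison and were not called. Which cells divided cannot be read from whole tissue. With LEV at 2 days, 0 of the 9 were called by limma, 0 had an unadjusted p under 0.05 and the median was −0.24.

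Other cells that express *Pdgfra* and *Cspg4* were checked beside them. Of 7 fibroblast genes tested, 0 were called by limma in SE 2 days against pre-SE mice, 3 were higher at an unadjusted p under 0.05 and the median logFC was 0.74. Their summed level was 78.3 and 200 CPM in pre-SE, 97.4 and 133 CPM in SE 6 h, 183 and 150 CPM in SE 2 days mice. Of 10 genes of pericytes and smooth muscle, 0 were called, 3 were higher at an unadjusted p under 0.05 and the median was 0.19, with summed levels of 76.0 and 116 CPM in pre-SE and 135 and 118 CPM in SE 2 days mice. Their part in the values of *Pdgfra* and *Cspg4* was not tested. Of all genes, 19.8% had an unadjusted p under 0.05 in SE 2 days against pre-SE mice, in either direction.

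The 7 genes did not vary as 1 block over the 10 libraries. On log2(CPM + 0.1), Pearson's r between 2 of them ran from −0.51 (*Cspg4* and *Bmp4*) to 0.70 (*Pdgfra* and *Olig1*), and *Olig1* and its neighbour *Olig2* had r = −0.07. *Olig1* and *Sox10* had r = 0.62. Among 14219 genes with a mean of at least 1 CPM, those most like *Pdgfra* were *Ung* (r = 0.91), *Lfng* and *Wipf1*, those most like *Cspg4* were *Lss* (0.86), *Gap43* and *Zmpste24*, and those most like *Olig1* were *Ppp1r14a* (0.90), *Tmem98* and *Lass2*. For *Olig2* they were *2610203C20Rik* (0.90), *Slc7a2* and *Tbc1d10a*, for *Sox10*, *St3gal4* (0.90), *Rexo2* and *Tnfrsf22*, for *Gpr17*, *Sgce* (0.91), *Cyp4f14* and *Zfp57*, and for *Bmp4*, *Hs3st1* (0.94), *Csmd1* and *Fgf12*. These are descriptions over 10 libraries that fall into groups and differ in depth and in the level of *Ttr*.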

How the data were processed

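CAGE libraries of whole hippocampi from 10 mice were used, 2 in each of 5 groups, grouped by the titles in the labels. Per the labels and methods, BWA 0.7.17 and, for reads left over, HISAT2 2.0.5 aligned the tags to mm9. Start sites were grouped by RECLU, those below 0.1 CPM were dropped, and the authors deposited the CPM of each gene in each mouse. How clusters were summed to genes, and whether strand was used, is not given in the sources used here. CPM scales each library to its total, so a few very abundant genes lower all others. No tag counts were analysed, and no batch or date is given. All per-mouse columns were used (0 left out). Depth was estimated as the total that makes all values under 2 CPM whole multiples of 1 tag within 0.005 CPM, which rounding alone allows for 10.6 to 51.8% of them.

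limma 3.58.1 in R 4.3.3 was run on log2(CPM + 0.1) with 5 group means and a mean-variance trend, two-sided, on the 15851 genes that reached 0.1 CPM in 2 or more libraries, and tested on simulated data. Python 3.11.15, pandas 2.3.3 and matplotlib 3.10.9 served for the rest. Genes outside the 7 were named if they belonged to the 5 largest called differences or the 2 highest levels of a list, or to the 3 genes most like one of the 7. *Ttr*, genes that overlap one of the 7 and genes so marked in the text were named outside that rule, after their values were seen. The members and the 14 lists were chosen with earlier results of these data known. Of 130 listed symbols, 123 were in the table and the others were not analysed here. The values of 1 gene that the rule would name are not reported here. Where a symbol had 2 entries, the entry with the higher mean was used. Alternatives were pseudocounts of 0.01, 0.5 and 1, no filter, a filter of 1 CPM, median-of-ratios rescaling, no trend, only the groups compared, the replicate number as a block, and each mouse left out in turn. A crossed block, a *Ttr* covariate and a fit without 4 libraries were added after the data were seen.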

Additional observations from a re-analysis of the deposited data

Results flagged for a closer look

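*Pdgfra* lay lower than pre-SE in both SE 6 h mice (logFC −0.22) and higher in both SE 2 days mice (logFC 0.25). The mice of the 2 times, which are different animals, thus lay on opposite sides of the pre-SE values. Over all genes, the groups of 49.9% and 52.0% did not overlap in these 2 comparisons. The pre-SE mice are shared, and the difference itself, SE 2 days against SE 6 h, was 0.47 with an adjusted p by limma of 0.33 and an unadjusted one of 0.092. *Sox10* lay lower than pre-SE in both SE + LEV 6 h mice (logFC −0.49) and higher in both SE + LEV 2 days mice (logFC 0.18). Here the groups of 42.5% and 40.1% of all genes did not overlap. The difference of *Sox10* between these times was 0.67, with an adjusted p by limma of 0.33 and an unadjusted one of 0.028. Neither difference passed the threshold.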

How the results depend on the processing

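None of the 7 genes was called by limma in any of the 9 comparisons under any of 22 alternatives (0 in all 198 counts). Among the 616 alternative values of logFC, which cover 4 of these comparisons, the smallest adjusted p was that of *Gpr17* in SE 2 days against pre-SE with a *Ttr* covariate (logFC −1.26, adjusted p by limma 0.053, range over its alternatives 0.053 to 0.60). Of the 616 values, 40 had the opposite sign, but many of the 616 could not move. Leaving out a mouse outside the comparison, filters, no trend, only the groups compared and the balanced blocks leave a difference of 2 group means as it was. The 40 are therefore no measure of how stable the signs are. Of 28 results, 9 kept their sign throughout, among them those of *Gpr17* and *Bmp4* in SE 2 days against pre-SE. Those of *Gpr17* and *Olig2* in SE + LEV 2 days against SE 2 days did so too, as did *Pdgfra* in SE 6 h against pre-SE (logFC −0.22). In all of these the groups did not overlap, so leaving out 1 mouse could not turn the sign. Without the 4 libraries with more than 100 CPM of *Ttr*, the logFC turned to −0.004 for *Sox10* and 0.14 for *Gpr17* in SE 6 h, to −0.64 for *Cspg4* and 0.01 for *Olig1* in SE 2 days against pre-SE, to −0.61 for *Cspg4* and −0.11 for *Olig2* with LEV at 6 h, and to −0.12 for *Pdgfra*, −0.09 for *Cspg4* and −0.05 for *Olig1* with LEV at 2 days. Rescaling turned *Cspg4* in SE 6 h to 0.02, *Sox10* in SE 2 days to 0.02, and *Cspg4* and *Olig1* with LEV at 6 h to −0.03 and −0.02, and the *Ttr* covariate turned *Cspg4* in SE 2 days to −0.05. The cause was not tested.

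Leaving out 1 mouse at a time, the logFC in SE 6 h against pre-SE ranged from −0.83 to 0.61 for *Cspg4*, −0.06 to 0.75 for *Olig2*, −1.17 to 0.17 for *Gpr17* and −0.91 to 0.11 for *Bmp4*. In SE 2 days against pre-SE it ranged from −0.64 to 0.80 for *Cspg4*, −0.59 to 0.30 for *Olig1*, −0.71 to 0.10 for *Olig2* and −0.39 to 0.38 for *Sox10*. With LEV at 6 h it ranged from −0.41 to 0.46 for *Cspg4*, −0.28 to 0.35 for *Olig1*, −0.002 to 0.52 for *Olig2*, −1.27 to 0.08 for *Gpr17* and −0.13 to 0.89 for *Bmp4*. With LEV at 2 days it ranged from −0.12 to 0.24 for *Pdgfra*, −0.20 to 0.55 for *Cspg4*, −0.05 to 1.16 for *Olig1*, −0.21 to 0.57 for *Sox10* and −0.45 to 1.45 for *Bmp4*. Where 1 mouse was left in a group, it is assumed to vary like the other groups. The fit without the 4 libraries drops only pre-SE replicate 2 from SE 2 days against pre-SE. From SE + LEV 2 days against SE 2 days it drops only SE + LEV 2 days replicate 1. In these 2 comparisons its values of logFC repeat those of leaving out that mouse.

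Of the genes of the 14 lists, 7 were called in SE 6 h against pre-SE, 0 without the 4 libraries with more than 100 CPM of *Ttr*, and 1 to 7 with 1 mouse left out (1 without SE 6 h replicate 2, 2 without pre-SE replicate 1, 3 without pre-SE replicate 2 or SE 6 h replicate 1). In SE 2 days against pre-SE, 13 were called, 23 with only the groups compared, 22 with the *Ttr* covariate, and 6 to 20 with 1 mouse left out (6 without SE 2 days replicate 2, 8 without pre-SE replicate 1, 20 without either SE + LEV 2 days mouse). With LEV, 0 were called in each.

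Replicate numbers are shared by the groups but stand for different animals, and the deviations of same-numbered mice correlated at −0.44 to 0.34 across genes. With the replicate number as a block, 0 of the 7 genes were called, and 6 and 15 list genes in SE 6 h and SE 2 days against pre-SE. With the numbers crossed in SE + LEV 2 days (r = −0.18 with SE 2 days), 0 of the 7 and 8 and 21 list genes were called. Count-based tests on recovered tags, listed as alternatives, were not run, because CPM given to 2 decimals did not allow whole tags to be recovered for nearly all genes. Depth limits *Bmp4* most, at 16 to 109 tags.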

Other observations

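Genes of other cell types were read in the same hippocampi. Of 6 astrocyte genes, 2 were called in SE 2 days against pre-SE mice, where *Gfap*, the filament of reactive astrocytes, rose from 238 to 2960 CPM (logFC 3.60, adjusted p by limma 0.00095) and *Aqp4*, the water channel, from 35.5 to 107 CPM (logFC 1.57, adjusted p 0.011). At an unadjusted p under 0.05, 3 of the 6 were higher and 3 lower, beside 19.8% of all genes in either direction. The 3 lower genes, named after their values were seen, were the glutamate transporter genes *Slc1a2* and *Slc1a3* and the connexin gene *Gja1*, with a logFC of −0.93, −0.73 and −0.98 (adjusted p by limma 0.061, 0.13 and 0.23). Of 6 microglia genes, 2 were called lower at 6 h, in the fit with all 10 libraries but not without the 4 libraries with more than 100 CPM of *Ttr*, as holds for each gene named here at 6 h. That fit has 1 mouse in each of both groups, in which *P2ry12* was at 6.51 against 41.45 CPM, *Tmem119* at 2.21 against 14.07 CPM and *Cdh5* at 17.58 against 4.41 CPM, in the same directions as the means of both mice. *P2ry12*, an ADP receptor of resting microglia, fell from 34.2 to 5.82 CPM (logFC −2.51) and *Tmem119* from 14.8 to 2.54 CPM (logFC −2.50). At 2 days *Aif1*, which marks microglia and macrophages, was called higher, at 71.7 CPM against 15.2 CPM (logFC 2.28, adjusted p by limma 0.0030).

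Of 6 endothelial genes, *Cdh5*, the cadherin of vessel junctions, was the 1 gene called at 6 h, at 18.5 CPM against 4.23 CPM (logFC 2.10, adjusted p by limma 0.0061), and at 2 days 0 were called by limma and 4 were higher at an unadjusted p under 0.05. Of 7 neuron genes, 0 were called by limma in SE 2 days against pre-SE, 1 was lower at an unadjusted p under 0.05 and 7 had estimates below 0 (median −0.31). The share of all genes with an unadjusted p under 0.05 in that comparison was 19.8%. Of 3 choroid plexus genes, 0 were called and 0 had an unadjusted p under 0.05 in 4 comparisons, with medians from −1.48 to 2.52. In the cell division list, *Pcna* was the 1 gene called at 6 h, where it rose from 44.5 to 126 CPM (logFC 1.45, adjusted p by limma 0.048). Of the 9 genes of that list, 7 had estimates below 0 at 6 h (median −0.37), and 1 was lower at an unadjusted p under 0.05.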
